A study of Mus musculus with 18 samples.

Results

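H3K27me3 was examined at 10 LIM-homeodomain genes (Lhx1, Lhx2, Lhx3, Lhx4, Lhx5, Lhx6, Lhx8, Lhx9, Isl1 and Isl2) of the 20665 autosomal protein-coding genes in the annotation. The genes were chosen by family, and every interval called in a library that overlapped the gene body extended by 2.5 kb at each end (GRCm38) was counted for that gene. The tissue was mouse medial ganglionic eminence (MGE), profiled by bulk CUT&Tag, which uses an antibody-tethered transposase to tag DNA beside a histone mark. WT and KO embryos were taken at both E12.5 and E15.5, and each of the 4 groups has 3 labelled biological replicates.

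KO libraries carry the label Nkx2.1-CreC/+;Ezh2;Ai9F/+, so that Ezh2 was deleted by a Cre driven by Nkx2.1 and Cre-active cells were marked by the Ai9 tdTomato reporter. Parents were Nkx2.1-CreC/C;Ezh2F/+ males and Ai9F/F;Ezh2F/+ females, so by this cross every embryo, WT included, inherits a Cre and an Ai9 allele. The deletion is limited to cells with a history of Nkx2.1 expression, and nuclei of other cells in the dissected tissue keep Ezh2. The whole MGE was taken at E12.5, whereas at E15.5 the dissection was restricted to reporter-positive MGE, and embryos of one genotype were pooled where needed. The dissection therefore cannot be told apart from the stage. Fewer cells with the mark and less of the mark per cell cannot be told apart in bulk tissue.

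LIM-homeodomain proteins are transcription factors that join a DNA-binding homeodomain to a pair of LIM domains, through which they assemble with the cofactor Ldb1. In the ventral forebrain Nkx2-1 acts upstream of Lhx6 and Lhx8. Lhx6 directs MGE-derived cells toward cortical interneuron fates, Lhx8 directs cholinergic fates, Isl1 acts in striatal and cholinergic neurons, and Lhx2 patterns the cortex and eye field. H3K27me3 is placed by Polycomb repressive complex 2, of which Ezh2 is a catalytic subunit, and covers developmental regulators in cells that do not use them. In a tissue of mixed cells a gene can carry the mark in some nuclei and be transcribed in others.

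All 10 genes had an interval in all 12 libraries, whereas 2492 of the 20665 genes (12.1%) did. Depth, the mean count per 200 bp window recovered from the deposited scores, was 0.117 to 0.698 at E12.5 WT, 0.212 to 0.272 at E12.5 KO, 0.0751 to 0.150 at E15.5 WT and 0.179 to 0.346 at E15.5 KO. Cover outside the autosomes was uneven at E12.5. KO libraries covered 42.7, 42.5 and 40.3 Mb in all, of which 32.7, 32.1 and 33.0 Mb were autosomal. WT libraries covered 28.6, 70.8 and 65.3 Mb, of which 28.3, 70.2 and 51.7 Mb were autosomal. At E15.5 the widest gap was in KO replicate 1, with 45.0 Mb in all and 42.6 Mb autosomal. The sample labels used here give no embryo sex, and its part in the comparisons was not tested. Ezh2 itself had an interval in 0 of the 12 libraries, so the intervals carry no check of the deletion. All 4 MGE markers (Nkx2-1, Lhx6, Lhx8, Sox6), all 5 subpallial markers and all 3 oligodendrocyte-lineage markers had an interval in every library, as did 4 of 5 pallial and 3 of 4 lateral ganglionic eminence markers, 1 of 3 endothelial and 0 of 4 microglial or blood markers. Because the mark accompanies silencing, these counts do not measure which cells were present, and the tissue label could not be checked with them.

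The mark lay over the start of each gene. RefSeq (GRCm38.p6) lists 13 start sites for 9 of the 10 genes, and all 13 lay inside an interval in every one of the 12 libraries. Windows of 300 bases around the starts, 250 before and 50 after, held from 4 to 37 CpG dinucleotides, against a median of 7 over 32851 promoters of the same length. The count exceeded that median at 11 of the 13 starts. It was 37 at Isl1 and 31 at Lhx1, more than in 94.4% and 89.4% of promoters. Lhx8 and Lhx9 were the exceptions, with 4 and 6. The only listed start of Lhx9, 138842444, lies inside its gene body, whose 5′ end is at 138848839 (minus strand). Those of Lhx4 and Isl2 also lie well inside the gene body, and the 5′ ends of these genes were not scored. The homeodomain core TAATTA, which reads the same on both strands, was in none of the 13 windows and in 5.29% of all promoters. The 250 bases before the start are given for Lhx6 (the farthest upstream of its listed starts, chr2:36105409-36105658, minus strand), Lhx8 (chr3:154330561-154330810, minus strand), Lhx2 (the upstream start, chr2:38339031-38339280, plus strand) and Lhx1 (chr11:84525535-84525784, minus strand). The first 3 genes are those whose counts are followed most closely, and Lhx1 had the highest enrichment. Each is written 5′ to 3′ on the gene's strand with CpG dinucleotides in capitals.
Lhx6: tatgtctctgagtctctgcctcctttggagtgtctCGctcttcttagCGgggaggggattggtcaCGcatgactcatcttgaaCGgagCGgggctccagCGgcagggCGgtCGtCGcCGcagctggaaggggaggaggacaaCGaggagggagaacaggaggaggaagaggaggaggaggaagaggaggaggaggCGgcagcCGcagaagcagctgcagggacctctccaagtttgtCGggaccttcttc
Lhx8: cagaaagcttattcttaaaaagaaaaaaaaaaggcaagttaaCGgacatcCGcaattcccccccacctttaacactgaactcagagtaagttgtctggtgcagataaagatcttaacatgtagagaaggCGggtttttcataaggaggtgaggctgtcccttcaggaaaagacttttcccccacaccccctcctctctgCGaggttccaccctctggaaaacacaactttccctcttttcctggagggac
Lhx2: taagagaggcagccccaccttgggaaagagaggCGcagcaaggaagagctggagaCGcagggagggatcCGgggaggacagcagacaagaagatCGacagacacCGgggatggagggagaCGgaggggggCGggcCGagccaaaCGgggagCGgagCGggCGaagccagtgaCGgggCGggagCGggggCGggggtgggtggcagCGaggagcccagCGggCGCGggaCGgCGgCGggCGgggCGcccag
Lhx1: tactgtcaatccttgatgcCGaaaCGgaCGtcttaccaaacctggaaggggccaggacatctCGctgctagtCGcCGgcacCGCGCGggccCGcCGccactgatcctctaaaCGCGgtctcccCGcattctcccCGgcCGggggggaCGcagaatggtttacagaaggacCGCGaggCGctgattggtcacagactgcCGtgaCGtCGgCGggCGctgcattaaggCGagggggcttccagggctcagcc
These stretches hold 14 CpG at Lhx6, 4 at Lhx8, 25 at Lhx2 and 26 at Lhx1. The CpG-poor Lhx8 stretch and the CpG-rich Lhx2 stretch both lay inside an interval in all libraries. The level of the mark was not measured over these stretches, and a relation to CpG content was not tested.

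Enrichment is the count per 200 bp window of a gene's intervals divided by the library's mean count per window. It gives a level per length for comparing genes within a library. Averaged over the 12 libraries it was 214 ± 53.2 (SD) at Lhx1 and 184 ± 55.4 at Lhx5, a paralogous pair used in hindbrain and spinal cord interneurons. It was 158 ± 33.6 at Isl2 and 143 ± 32.7 at Lhx3, factors of motor neuron development, and 131 ± 20.8 at Lhx9. Lhx6 stood at 106 ± 29.8, beside Lhx4, a pituitary and motor neuron factor, at 102 ± 17.6, and Lhx8 stood at 79.8 ± 18.3. Isl1 stood at 92.3 ± 13.2 and Lhx2 at 40.7 ± 9.82. The median over the 2492 genes with an interval in every library was 22.4, and the 10 means lay between the 70.5th percentile (Lhx2) and the 98.6th percentile (Lhx1) of those genes. Enrichment also differed between libraries of unlike depth. In E12.5 WT replicate 1 (depth 0.117) it was 256 at Lhx1 and 138 at Lhx6, against 98.2 and 85.9 in replicate 2 (depth 0.698). Of the 10 genes only Isl1 was higher in replicate 2, at 101 against 97.6. The part of depth in enrichment was not tested.

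Lhx8 exceeded Lhx2 in 12 of 12 libraries, and Lhx2 was the lowest of the 10 in every library. Lhx5 exceeded Isl2 in 11 of 12 and Isl1 exceeded Lhx8 in 10 of 12. The other neighbours in the order were less separate: Lhx1 exceeded Lhx5 in 9 of 12, Isl2 exceeded Lhx3 in 9 of 12, and Lhx6 exceeded Lhx4 in 7 of 12, with a difference of means of 4.08 that is smaller than either SD. Between the paralogs Lhx6 and Lhx8, the ratio of enrichment was 1.48 ± 0.389 (SD, n = 3) at E12.5 WT, 2.09 ± 0.334 at E12.5 KO, 0.907 ± 0.215 at E15.5 WT and 1.14 ± 0.0458 at E15.5 KO. Lhx6 was thus above Lhx8 in all 6 E12.5 libraries, while at E15.5 WT the ratio ranged from 0.681 to 1.11.

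**Figure D1:**
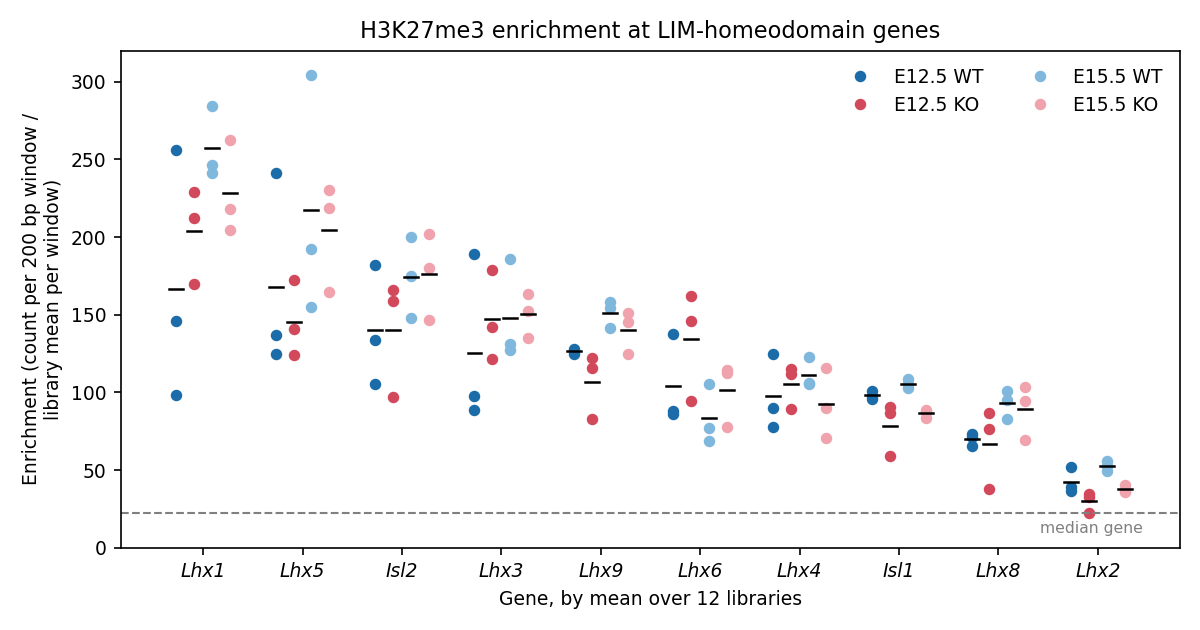
H3K27me3 enrichment (vertical axis, count per 200 bp window over the library mean, no unit) at the 10 genes in each of the 12 libraries; points are libraries coloured by group, short black lines are group means of 3, and the dashed line is the median gene at 22.4. Lhx1 and Lhx5 have the highest means, 214 and 184, and Lhx2 is the lowest gene in every library.

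The mark formed a broad domain at each gene. Intervals of a gene covered 36.9 kb on average at Lhx4 and 32.7 kb at Lhx2, 27.3 kb at Lhx6, and 16.7 kb at Lhx8 and 16.2 kb at Isl2, against a median of 8.2 kb for genes marked in every library. At Lhx6 (chr2:36081950-36105992) the bases covered in all 12 libraries ran from 36090001 to 36109800, which is 19.8 kb and 66.5% of the gene body. At Lhx8 (chr3:154306288-154330560) they ran from 154324001 to 154338000, 14.0 kb that hold the start and reach 6.56 kb into the gene, so the 3′ part of Lhx8 lay outside this shared domain. At Lhx2 (chr2:38339271-38369737) they ran from 38335201 to 38359800, 24.6 kb and 67.4% of the gene body. Lhx1, Lhx3, Isl1 and Isl2 were covered over their whole length in every library, and 97.3% of Lhx5 was.

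The domains reached past the gene windows. With a mostly-inside rule, under which at least 0.5 of an interval's length must lie inside the window, 7 of the 10 genes kept an interval in every library, and Lhx1 had one in 10, Lhx3 in 10 and Lhx5 in 9 of 12. Domains overlapped another protein-coding gene in some library at Lhx1 (Aatf), Lhx3 (Qsox2), Lhx6 (Morn5), Lhx9 (2310009B15Rik) and Isl2 (Scaper), and their counts then include reads over that neighbour. Width moved with depth: the deepest library, E12.5 WT replicate 2, had the widest cover at 7 of the 10 genes, including 35.8 kb at Lhx6 and 48.4 kb at Lhx2. The part of depth in the widths was not tested.

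**Figure D2:**
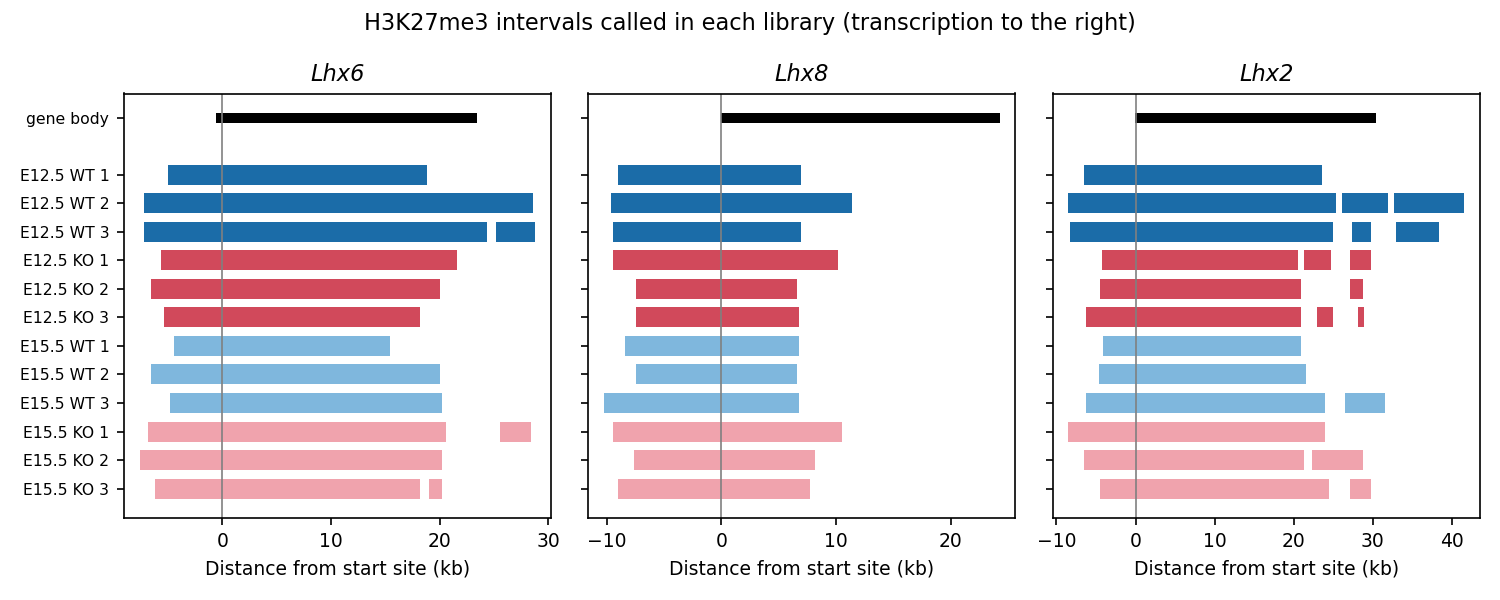
Intervals called in each of the 12 libraries at Lhx6, Lhx8 and Lhx2 (horizontal axis, distance from the farthest upstream of the listed start sites in kb, transcription to the right); each row is a library, coloured by group, and the black bar is the gene body. The start lies inside an interval in all 12 libraries, and the Lhx8 domain ends in the 5′ part of the gene, 6.56 to 11.4 kb after the start.

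The comparison of KO with WT asks how loss of Ezh2 changes the mark at each stage. Counts were normalised to the mean depth of the 12 libraries and tested with edgeR's quasi-likelihood test with Benjamini-Hochberg adjustment over all genes tested, at a threshold of 0.05. The members' changes are read beside the median change of all genes, because the scaling moves that median: at E12.5 it was −0.59 on the log2 scale with depth and −0.05 with TMM factors, a scaling that sets the bulk of genes to no change. At E15.5 both scalings put it within 0.01 of zero (−0.01 and 0.00).

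At E12.5 none of the 10 genes passed the test (0 of 10, 1 of 10 at an unadjusted p under 0.05, 0 of 10 by DESeq2), where 3.89% of the 2955 genes tested did by edgeR and 5.55% by DESeq2. Of all 2955 genes, 866 had an unadjusted p under 0.05 by edgeR. The 115 genes called were all lower in KO with depth; the split was 14 higher and 39 lower with TMM factors, 4 and 24 with column sums, and 69 and 95 with DESeq2. With depth, 9 of the 10 genes lay above the median of all genes and 9 had a negative change, of which 8 turned positive with TMM factors. The one gene of the 10 below the median of all genes was Lhx2.

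Lhx2, the cortical and eye-field regulator, had normalised counts of 2030, 2443 and 1957 in WT at E12.5, against 900.2, 1222 and 1267 in KO. Every KO library was below every WT library, with no overlap, a pattern met at 33.8% of all genes tested. The fitted change was −0.92 on the log2 scale (SE 0.28), a fold of 0.527, with an adjusted p of 0.0793 by edgeR. It passed the threshold with merged regions in place of genes (adjusted p = 0.00861), with the mostly-inside rule (0.0377), with intervals above the median score (0.0303) and without E12.5 KO replicate 3 (0.0449). With TMM factors it was −0.37 (adjusted p = 0.264).

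Lhx6 had normalised counts of 4259, 3997 and 4026 in WT at E12.5, against 3335, 5055 and 4974 in KO. KO replicate 1 was below all WT libraries and the other KO libraries were above them, so the groups overlapped. The change was 0.12 (SE 0.24, adjusted p = 0.692 by edgeR), and 0.65 with TMM factors (adjusted p = 0.213). E12.5 KO replicate 1 was the lowest of the 3 KO libraries at all 10 genes. Without it, the change was 0.29 at Lhx6 (adjusted p = 0.352), −0.78 at Lhx2 (adjusted p = 0.221) and −0.11 at Lhx8.

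Lhx8 had normalised counts of 1487, 1785 and 1559 in WT at E12.5, against 972.4, 1387 and 1599 in KO. The KO libraries spread over more than the WT range, and the groups overlapped. The change was −0.29 (SE 0.29, adjusted p = 0.439 by edgeR), and 0.24 with TMM factors.

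Among the other 7 genes the changes with depth lay between −0.35 (Lhx5) and −0.13 (Lhx4 and Lhx1). Every KO library was below every WT library at Lhx9, Lhx3 and Isl1, as at Lhx2. This pattern was also met at 33.8% of all genes tested, so 4 of 10 genes is near the share of genes at large. Isl1 averaged 2991 ± 91.2 (SD, n = 3) in WT and 2400 ± 525 in KO, and its change was −0.32 (SE 0.27, adjusted p = 0.363 by edgeR) with depth and 0.21 with TMM factors. Lhx9 averaged 3385 ± 157 in WT and 2747 ± 547 in KO. Lhx3 averaged 4045 ± 165 in WT and 3391 ± 466 in KO. The KO groups of all 3 genes had the larger SD.

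At E15.5 none of the 10 genes passed (0 of 10, with 1 at an unadjusted p under 0.05 and 1 by DESeq2), where 0.516% of 2519 genes did by edgeR and 2.98% by DESeq2. An unadjusted p under 0.05 by edgeR was met at 281 of the 2519. Of all genes called, 11 were higher and 2 lower by edgeR, and 48 higher and 27 lower by DESeq2. The changes lay between −0.28 (Lhx2) and 0.52 (Lhx6), and 8 of 10 were negative. Lhx6 and Lhx8 were the 2 genes with a positive change.

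Lhx6 had normalised counts of 2712, 2375 and 2508 in WT at E15.5, against 3046, 4134 and 3733 in KO. Every KO library was above every WT library, a pattern met at 11.3% of all genes. At this stage every KO library was also deeper than every WT library (0.179 to 0.346 against 0.0751 to 0.150). A remaining effect of depth therefore cannot be told apart from the genotype at E15.5. The change was 0.52 (SE 0.13), a fold of 1.44, with an adjusted p of 0.209 by edgeR. It passed the threshold with merged regions (adjusted p = 0.0246) and with DESeq2 (0.0364, with a change of 0.49), and the value with TMM factors was the same to 2 decimals (0.52).

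Lhx8 had normalised counts of 1878, 1836 and 1829 in WT at E15.5, against 1810, 2121 and 2058 in KO. The KO libraries lay on both sides of the narrow WT range. The change was 0.11 (SE 0.10, adjusted p = 0.719 by edgeR).

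Lhx2 had normalised counts of 1702, 1903 and 2262 in WT at E15.5, against 1525, 1808 and 1511 in KO. One KO library exceeded the lowest WT library, so the groups overlapped. The change was −0.28 (SE 0.14, adjusted p = 0.507 by edgeR). Isl1 averaged 3382 ± 183 (SD, n = 3) in WT and 2939 ± 310 in KO, a change of −0.20. The remaining 6 genes had changes between −0.16 (Lhx5) and −0.01 (Isl2).

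**Figure D3:**
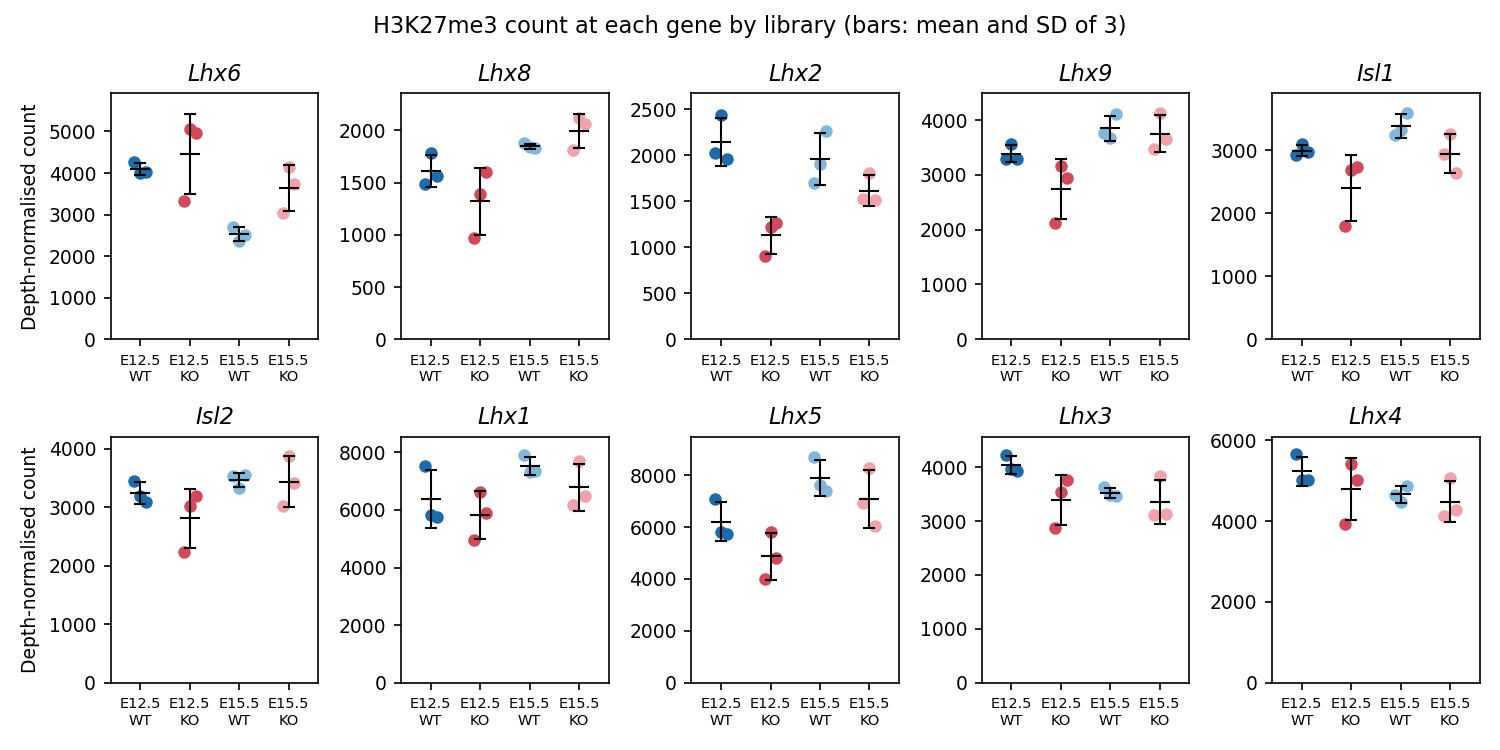
Depth-normalised H3K27me3 counts (vertical axes from 0, each gene on its own scale) at the 10 genes by group; points are libraries in replicate order and bars are the mean and SD of 3. Lhx6 at E15.5 has all KO libraries above all WT libraries, a pattern met at 11.3% of all genes tested. Lhx2 at E12.5 has all KO libraries below all WT libraries, a pattern met at 33.8%.

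Over both stages together none of the 10 genes passed with depth as the scaling (0 of 10, with 3 at an unadjusted p under 0.05), where 1.01% of 2388 genes did. An unadjusted p under 0.05 by edgeR was met at 513 of the 2388. Lhx2 and Lhx6 stood at the ends of the family's range. Lhx2 had a change of −0.60 (SE 0.16, fold 0.660, adjusted p = 0.0963 by edgeR) and Lhx6 one of 0.32 (SE 0.14, fold 1.25, adjusted p = 0.212), against a median of −0.29 over all genes with depth and −0.02 with TMM factors. Both passed in the alternatives that scale by the intervals themselves: with TMM factors Lhx2 was −0.33 (adjusted p = 0.0372) and Lhx6 0.58 (0.0212), with column sums Lhx2 was −0.44 (0.0343) and Lhx6 0.47 (0.0180), and with DESeq2 Lhx2 was −0.30 (0.0149) and Lhx6 0.60 (0.00110). In all 4 scalings Lhx2 was lower and Lhx6 higher in KO. Each of these scalings is relative to a library's own reads, with no outside standard. A higher value is therefore a larger share of the library, and a change of the mark over the whole genome was not measured. Of all genes, 4.48% passed with TMM factors, 1.97% with column sums and 9.34% with DESeq2. The split of calls was 1 higher and 23 lower with depth, 53 and 54 with TMM factors, 15 and 32 with column sums, and 109 and 114 with DESeq2. The other 8 genes had changes between −0.26 and −0.09 with depth and passed in no alternative.

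A ratio of counts within a library does not depend on the scaling. The Lhx6 count over the Lhx2 count, a pair chosen after the values were seen and given without a test, was 2.10, 1.64 and 2.06 in WT at E12.5, against 3.70, 4.14 and 3.93 in KO. At E15.5 it was 1.59, 1.25 and 1.11 in WT, against 2.00, 2.29 and 2.47 in KO. All KO libraries were above all WT libraries of their stage. Lhx6 over its paralog Lhx8 was 2.56 ± 0.313 (SD, n = 3) in WT against 3.39 ± 0.268 in KO at E12.5, and 1.37 ± 0.0753 against 1.82 ± 0.133 at E15.5. Lhx2 over its paralog Lhx9 was 0.632 ± 0.0474 in WT against 0.413 ± 0.0240 in KO at E12.5, and 0.506 ± 0.0499 against 0.430 ± 0.0148 at E15.5. Lhx1 over Lhx5 averaged 1.02 ± 0.0333 in WT against 1.24, 1.14 and 1.23 in the KO libraries at E12.5, with no overlap, and was 0.955 ± 0.0430 against 0.967 ± 0.0971 at E15.5. Lhx3 over Lhx4 was 0.775 ± 0.0223 against 0.711 ± 0.0497 at E12.5, and 0.757 ± 0.0399 against 0.749 ± 0.0139 at E15.5. At E12.5 its libraries all but met, at 0.750 in WT replicate 1 and 0.749 in KO replicate 3. Isl1 over Isl2 was 0.924 ± 0.0687 against 0.848 ± 0.0440 at E12.5 and 0.976 ± 0.0528 against 0.861 ± 0.103 at E15.5, and the libraries overlapped at both stages.

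**Figure D4:**
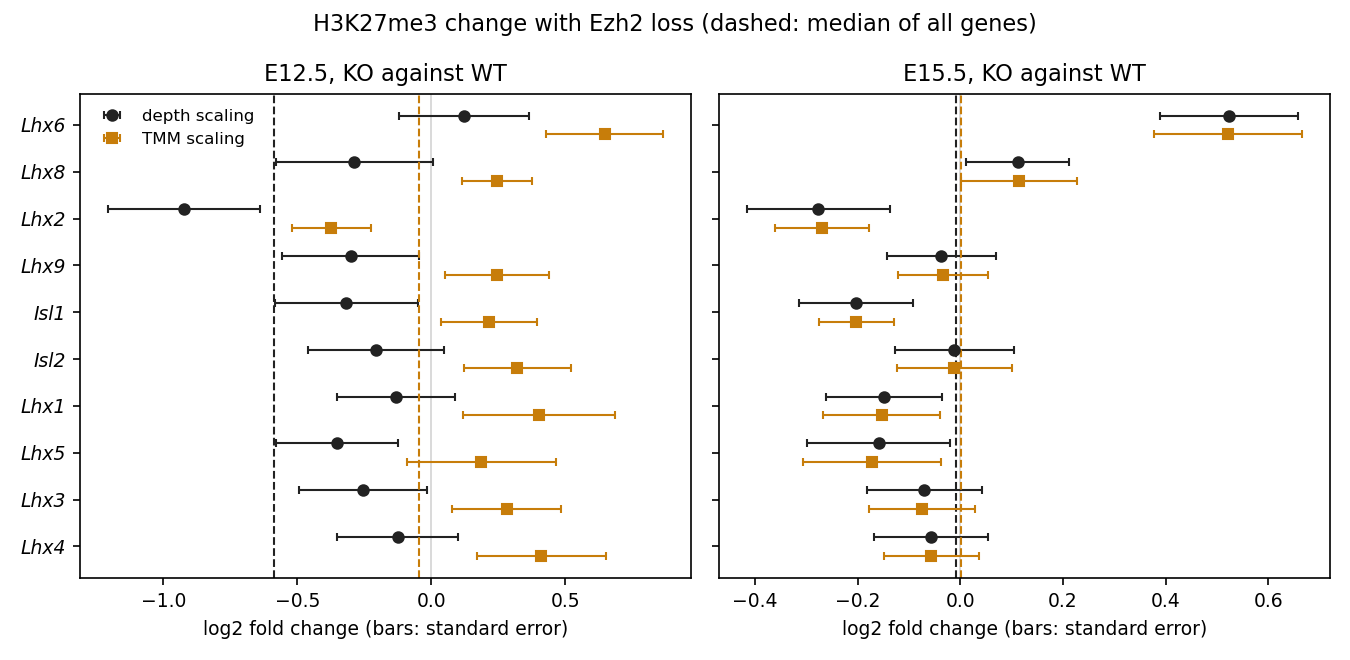
Log2 fold change of KO against WT (horizontal axes, different ranges) at the 10 genes at E12.5 and E15.5; circles use depth and squares TMM factors, bars are standard errors, and dashed lines are medians of all genes tested. At E12.5 the median is −0.59 with depth and −0.05 with TMM factors and Lhx2 is the lowest gene under both; at E15.5 Lhx6 is the highest at 0.52.

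The width of the domain and the level within it were tested over both stages with limma. In covered bases none of the 10 genes passed (0 of 10, and 0 of 10 at an unadjusted p under 0.05), where 0% of genes did. An unadjusted p under 0.05 by limma was met at 56 of 2388 genes. The changes in covered bases lay between −0.34 (Lhx3) and 0.04 (Isl1) on the log2 scale, and those of Lhx6, Lhx8 and Lhx2 were −0.02, 0.01 and −0.11. In enrichment none passed (0 of 10, with 1 at an unadjusted p under 0.05), where 0.0838% of genes did. An unadjusted p under 0.05 by limma was met at 202 of 2388 genes. Lhx2 had the lowest value, −0.49 (SE 0.19, adjusted p = 0.438), and Lhx6 the highest, 0.32 (SE 0.19, adjusted p = 0.609). Mean enrichment at Lhx2 was 42.6 ± 8.31 (SD, n = 3) in WT against 29.9 ± 6.56 in KO at E12.5, and 52.6 ± 3.22 against 37.9 ± 2.42 at E15.5. At Lhx6 it was 104 ± 29.3 in WT against 134 ± 35.5 in KO at E12.5, and 83.8 ± 19.2 against 101 ± 20.6 at E15.5. The E12.5 WT libraries stood at 138, 85.9 and 88.0 there, and the first, the least deep, lay within the KO range of 94.4 to 162.

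The genotype effect at E15.5 minus that at E12.5 was tested as an interaction. None of the 10 genes passed (0 of 10, 1 of 10 at an unadjusted p under 0.05, 0 of 10 by DESeq2), where 0.586% of 2388 genes did by edgeR and 1.8% by DESeq2 (14 higher and 0 lower, 38 higher and 5 lower). An unadjusted p under 0.05 by edgeR was met at 672 of the 2388. The interaction was 0.65 (SE 0.27, adjusted p = 0.155 by edgeR) at Lhx2 and passed without E12.5 KO replicate 3 (adjusted p = 0.0473). It was 0.40 at Lhx6 (SE 0.26, adjusted p = 0.273) and 0.40 at Lhx8 (SE 0.27, adjusted p = 0.297). The median of all genes was 0.61 with depth and 0.08 with TMM factors. A difference between the stages in the effect of Ezh2 loss on these genes was therefore not shown.

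The stage comparison within WT asks how the mark differs between E12.5 and E15.5 with Ezh2 present. Lhx6 was the only one of the 10 genes to pass with depth, and it fell. Its mean normalised count was 4094 ± 144 (SD, n = 3) at E12.5 and 2532 ± 170 at E15.5, and all E15.5 libraries were below all E12.5 libraries. The change was −0.69 (SE 0.10), a fold of 0.618, with an adjusted p of 0.00862 by edgeR. The median of all 2479 genes was −0.60 with depth, and 38.1% of genes passed, 36.4% as lower, so the fall of Lhx6 is close to that of the median gene. With TMM factors, under which the median gene is at −0.09, the change of Lhx6 was −0.22 (adjusted p = 0.394), and the call was also lost with DESeq2 (0.718) and without E15.5 WT replicate 2 (0.0554).

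The other 9 genes lay above the median of all genes. With depth, 6 of them had positive changes, from 0.09 (Isl2) to 0.35 (Lhx5, SE 0.12, adjusted p = 0.0573 by edgeR), and none of the 9 passed. Groups did not overlap at Lhx5, Lhx9, Lhx8 and Isl1, which were higher at E15.5 in every library, where 4.03% of all genes showed that pattern. They did not overlap at Lhx3, Lhx4 and Lhx6, which were lower in every library, where 52.8% of all genes did. With TMM factors 4 of the 10 genes passed as higher, namely Lhx5, Lhx9, Lhx8 and Isl1 (changes of 0.82, 0.67, 0.69 and 0.66), where 11% of genes did. With DESeq2 7 passed as higher, where 14.3% of genes did. All calls split into 43 higher and 902 lower with depth, 272 and 420 with TMM factors, 118 and 511 with column sums, and 354 and 354 with DESeq2. Lhx8 averaged 1610 ± 156 (SD, n = 3) at E12.5 and 1848 ± 26.7 at E15.5, a change of 0.20 with depth (SE 0.11, adjusted p = 0.191).

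Within KO, none of the 10 genes passed between the stages with depth (0 of 10, 2 of 10 at an unadjusted p under 0.05, 4 of 10 by DESeq2), where 8.73% of 2828 genes did, and the median of all genes was −0.04. An unadjusted p under 0.05 by edgeR was met at 563 of the 2828. As higher, 9.09% of genes passed with TMM factors, 7.5% with column sums and 10.7% with DESeq2, and calls split into 112 higher and 135 lower with depth and 212 and 159 with column sums. Lhx8 averaged 1320 ± 319 (SD, n = 3) at E12.5 KO and 1996 ± 164 at E15.5 KO, with every E15.5 library above every E12.5 library. Its change was 0.60 (SE 0.29, adjusted p = 0.234 by edgeR), and it passed with TMM factors (0.61, adjusted p = 0.0249), column sums (0.0184) and DESeq2 (0.00182). Lhx2 averaged 1130 ± 200 and 1615 ± 167, a change of 0.51 (SE 0.29, adjusted p = 0.329) that passed with TMM factors (0.50, adjusted p = 0.0397), column sums (0.0197) and DESeq2 (0.0119). Lhx5 (0.54, adjusted p = 0.143) and Lhx9 (0.45, adjusted p = 0.337) were also higher in every E15.5 library, where 11.8% of all genes were. Lhx6 averaged 4455 ± 971 and 3638 ± 550 and had the lowest change of the 10, −0.29 (SE 0.24, adjusted p = 0.572).

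**Figure D5:**
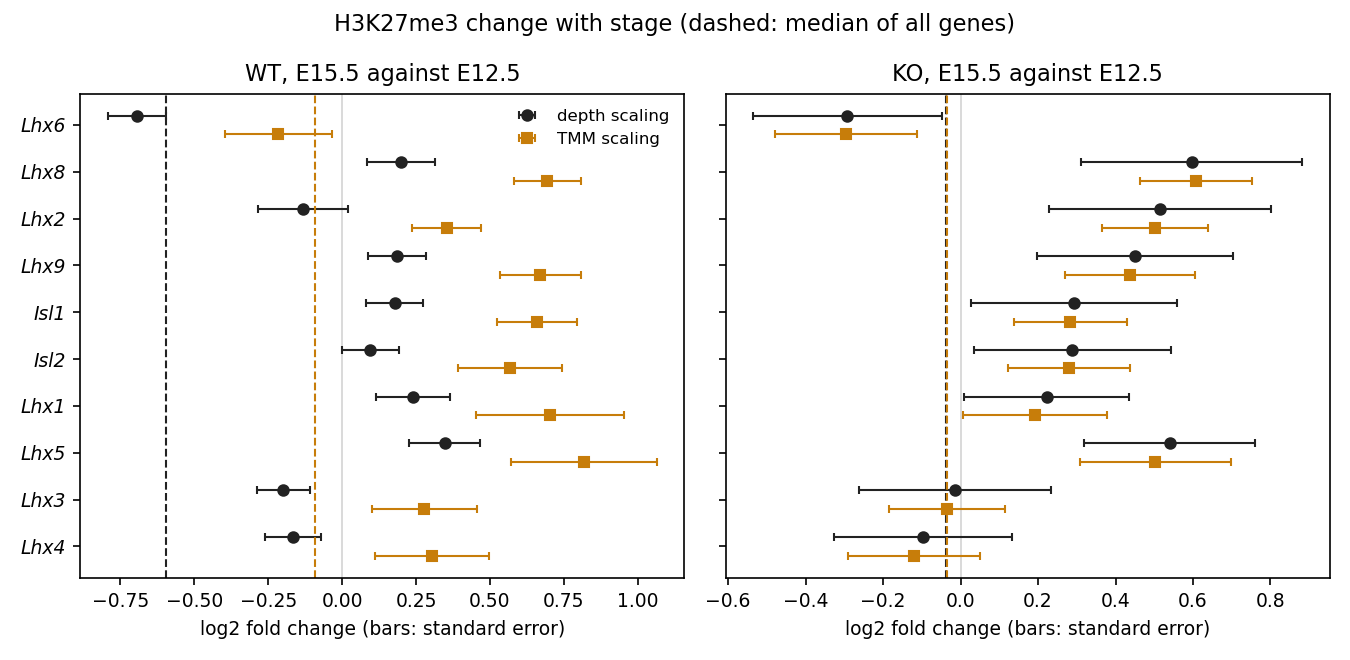
Log2 fold change of E15.5 against E12.5 (horizontal axes, different ranges) at the 10 genes in WT and in KO; circles use depth and squares TMM factors, bars are standard errors, and dashed lines are medians of all genes tested. Lhx6 has the lowest change of the 10 in both panels, −0.69 in WT and −0.29 in KO with depth.

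Genes that act before and after these factors were followed with lists chosen with earlier results of these data known. Of the 6 regulators upstream of Lhx6 and Lhx8, all 6 were testable at E12.5 and none passed between the genotypes with depth; their median change was 0.46 against −0.59 over all genes. Nkx2-1, which is both upstream and the gene whose promoter drives the Cre, had a change of 1.21 at E12.5 (SE 0.33, adjusted p = 0.0540 by edgeR), which passed with TMM factors (1.75, adjusted p = 0.0165). At E15.5 it was 0.70 (SE 0.31, adjusted p = 0.456). Over both stages it was 0.95 (SE 0.24, adjusted p = 0.0786) and passed with TMM factors (1.21, adjusted p = 0.0245). The Cre allele is carried by WT and KO alike under the stated cross.

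The Dlx genes, homeobox regulators of forebrain GABAergic neurons, did not pass between the genotypes with depth. Over both stages Dlx2 was 0.67 with depth (adjusted p = 0.174 by edgeR) and passed with TMM factors (0.95, adjusted p = 0.0399). Between the stages, 4 of 5 testable upstream genes, all Dlx genes, fell in WT, and 4 of 6 fell in KO. Of all genes, with identical ones entered once, 36.4% fell in WT and 4.77% in KO; these shares are not set against the 4 genes, because Dlx5 and Dlx6 are 1 measurement and Dlx1 and Dlx2 had nearly the same values in KO. In WT, Dlx5 and Dlx6, which share their intervals, fell by 1.00 on the log2 scale (SE 0.14, adjusted p = 0.00831 by edgeR) and Dlx1 fell by 0.92 (adjusted p = 0.0148). In KO, Dlx1 fell by 1.34 (SE 0.27, adjusted p = 0.000597), Dlx2 by 1.33 (adjusted p = 0.000646) and Dlx5 by 1.11 (adjusted p = 0.00105). Nkx2-1 had a change of 0.96 between the stages in WT (adjusted p = 0.0609), which passed with TMM factors (1.51, adjusted p = 0.0236), and of 0.46 in KO (adjusted p = 0.380). With TMM factors the 4 Dlx calls in KO remained and none of the 4 in WT did.

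Of 11 genes downstream of Lhx6 in cortical interneurons, 8 were testable at E12.5, and 1 passed, where 3.89% of all genes did. Maf, a transcription factor of maturing interneurons, fell in KO, with a change of −1.74 (SE 0.36, adjusted p = 0.0146 by edgeR). Its normalised counts were low, 16.2 to 87.3 over the 12 libraries. With TMM factors Maf did not pass at −1.16 (adjusted p = 0.133). At E15.5 none of 6 passed, and Maf stood at 0.04. Within KO, Maf rose between the stages by 1.61 (SE 0.44, adjusted p = 0.0153). In WT 1 of 6 passed between the stages, as lower, where 36.4% of all genes did. This was Satb1, a chromatin organiser of somatostatin interneurons, with a change of −1.05 (SE 0.29, adjusted p = 0.0299) against a median of −0.60 over all genes, and it did not pass with TMM factors (−0.54, adjusted p = 0.0919). Normalised counts of Satb1 were also low, 33.8 to 135. Sox6, a regulator of MGE-derived interneurons, passed with TMM factors and not with depth. With TMM factors its change was 0.60 over both stages between the genotypes (adjusted p = 0.00935 by edgeR). Between the stages it was 0.69 in WT (0.0307) and 0.93 in KO (0.00194). With depth these were 0.32 (adjusted p = 0.363), 0.18 (0.613) and 0.92 (0.0628).

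Of 8 genes downstream of Lhx8 in cholinergic neurons, 7 were testable in every comparison, and none passed between the genotypes at either stage. Between the stages in WT, the homeobox genes Gbx2 and Gbx1 rose with changes of 0.41 (SE 0.10, adjusted p = 0.0210 by edgeR) and 0.57 (SE 0.16, adjusted p = 0.0345), and both also passed with TMM factors (0.88 and 1.08). The list's median was −0.37 in WT against −0.60 over all genes.

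The LIM-homeodomain genes outside the 10, Lmx1a and Lmx1b, had an interval in every library and passed in no comparison; at E12.5 their changes were −0.27 and −0.12, turning to 0.26 and 0.41 with TMM factors. Of the LIM-only genes, whose products compete for Ldb1, Lmo1 and Lmo2 had an interval in every library and Lmo4 in none. Neither of the former passed, and their normalised counts were low, 27.8 to 95.6 at Lmo1 and 32.4 to 121 at Lmo2. Of the 5 genes for cofactors of LIM domains, 0 had an interval in every library. Ssbp4 alone among them could be tested, at E15.5 and within KO, and in KO it rose between the stages by 1.89 (SE 0.44, adjusted p = 0.00385 by edgeR). Its normalised counts were low, 0 to 134, with an interval in 11 libraries.

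The genes whose pattern over the 12 libraries was most like that of Lhx6, by Pearson correlation of log2 normalised counts after subtraction of each library's median, were Wnt3 (r = 0.97), Wnt9b (0.97), Rprml (0.94), Gdnf (0.93) and Msx3 (0.92), out of 2491 genes. The first 3 lie on chromosome 11, and Wnt3 and Wnt9b share an interval in all 12 libraries. For Lhx8 they were Bhlhe22 (0.98), Bsx (0.98), Dbx1, Onecut2 and Sp8 (each 0.97). The other members differed in their likeness to these genes: the correlation with Lhx8 was 0.97 for Lhx9 and 0.94 for Isl2, whereas Lhx6 had a correlation of 0.33 with Lhx8 and −0.17 with Lhx2. The median correlation over all genes was 0.13 for Lhx6 and 0.21 for Lhx8. These are descriptions over libraries that share their group structure and depth.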

How the data were processed

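H3K27me3 CUT&Tag was analysed in 12 of the 18 mouse MGE samples, 3 WT and 3 KO libraries at each of E12.5 and E15.5; the 6 heterozygous samples were not analysed here. Per the submitters' processing notes, the tools included cutadapt, Bowtie2, SAMtools, Picard, deepTools and SICER, and the build was GRCm38 (mm10); their settings are not given in the sources used here. Each library has its own interval list on a 200 bp grid, so replicates were not pooled at calling.

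The count of each interval is the raw whole number the authors deposited. The score they deposited equals, in intervals of a single window, the negative natural log of a Poisson probability of the count, and the mean count per window recovered from it was used as depth. That it is proportional to total reads is an assumption. Counts of intervals overlapping a gene body extended by 2.5 kb by at least 1 bp were summed for 20665 autosomal protein-coding genes; a whole interval was counted, including its part outside the window. Normalised counts are counts over depth, multiplied by 0.260, the libraries' mean depth. Genes with an interval in every library compared were tested, so that calls lost from a library are outside the tests, and genes with identical counts entered once. Counting error at depths of 0.0751 to 0.698 per window is part of the spread between replicates.

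Tests were edgeR 4.0.16 (quasi-likelihood, depth as library size) and, for log2 covered bases and log2 enrichment, limma 3.58.1 with a trend, in R 4.3.3, with Benjamini-Hochberg adjustment over all genes tested at 0.05; SE is the change over the square root of F. They were tested on simulated data. Alternatives were TMM factors, column sums of autosomal counts, DESeq2 1.42.0, genes called in most libraries, a mean count of at least 50, the gene body alone, at least 0.5 of the interval inside the window, merged regions, intervals above the median score, log2 depth as a covariate, leave-one-out fits, and a block for the replicate number. Genes called in most libraries had an interval in at least 4 of 6 or 8 of 12 libraries compared, whatever their group. The replicates are labelled biological. Gene positions and promoters are from RefSeq (GRCm38.p6); positions count from 1. All 10 members were named in each comparison, with Nkx2-1 and up to 3 genes per list past the threshold, smallest adjusted p first, and the 5 genes most like Lhx6 and Lhx8; Lmx1a, Lmx1b, Lmo1, Lmo2, Lmo4 and Sox6, and Dlx2 over both stages, were named after their values were seen. The result of 1 listed gene past the threshold is not reported here. The members and lists were chosen with earlier results of these data known. Figures used matplotlib 3.10.9.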

Additional observations from a re-analysis of the deposited data

How the results depend on the processing

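The 10 genes had an interval in every library with the gene body alone and with intervals above the median score, and 7 of 10 did with the mostly-inside rule. Of 145 alternative counts of genes passed, 121 stayed within 1.5 times the count given and 24 moved. The count at E12.5 rose from 0 to 1 (Lhx2) with the mostly-inside rule, merged regions, intervals above the median score and the replicate block, and over the left-out libraries it was 0 to 1. The count at E15.5 rose to 1 (Lhx6) with DESeq2 and merged regions. Over both stages it was 2 with TMM factors, column sums and DESeq2 (Lhx2 and Lhx6) and 1 with merged regions (Lhx2). The interaction gave 0 to 1 over the left-out libraries. In WT between stages the count was 4 with TMM factors, 7 with column sums, 7 with DESeq2, 2 with merged regions and 2 with the replicate block (Lhx5 and Lhx6), and 0 to 3 over the left-out libraries, 0 without E15.5 WT replicate 2 and 3 without E12.5 WT replicate 1. The count with column sums includes Lhx6 as lower, whereas those with TMM factors and DESeq2 are all higher. Over all genes, 692, 629 and 708 of 2479 passed with these 3 scalings, 1228 of 2570 with merged regions and 1013 of 2479 with the block. In KO between stages the count was 2 with TMM factors, 4 with column sums, 4 with DESeq2, 1 with merged regions and 1 with the replicate block (Lhx5). Over all genes, 485, 371 and 558 of 2828 passed with the scalings, 436 of 3145 with merged regions and 178 of 2828 with the block. The cause was not tested for any of these.

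Whether replicate numbers pair the samples was not settled. Deviations of same-numbered WT and KO libraries correlated at 0.22, 0.03 and 0.15 at E12.5 and at −0.22, −0.20 and −0.36 at E15.5. Those of differently numbered libraries ranged from −0.20 to 0.15 at E12.5 and from −0.01 to 0.23 at E15.5. With the replicate block the adjusted p of Lhx2 at E12.5 was 0.0426, and that of Lhx5 between stages 0.0345 in WT and 0.0462 in KO, and no other call of the 10 genes changed. Over all genes the block gave 308 calls at E12.5, 0 at E15.5, 4 over both stages, 25 in the interaction and 0 in enrichment.

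Of the numbers of calls over all genes tested without the block, those more than 1.5 times away from that with depth and the rules of the report were these. At E12.5 the number was 115, and 53 with TMM factors, 28 with column sums, 6 with genes called in most libraries, 182 with the mostly-inside rule, 348 with merged regions and 174 with intervals above the median score. At E15.5 the number was 13, and 75 with DESeq2, 1 with genes called in most libraries, 20 with the mostly-inside rule and 136 with merged regions. Over both stages the number was 24, and 107 with TMM factors, 47 with column sums, 223 with DESeq2, 0 with genes called in most libraries, 46 with the mostly-inside rule and 159 with merged regions. In the interaction the number was 14, and 43 with DESeq2, 30 with the mostly-inside rule, 147 with merged regions and 7 with intervals above the median score. In WT between stages the number was 945, and 629 with column sums and 525 with genes called in most libraries. In KO between stages the number was 247, and 485 with TMM factors, 371 with column sums, 558 with DESeq2, 96 with genes called in most libraries and 436 with merged regions. In covered bases the number was 0, and 8 with log2 depth as a covariate. In enrichment the number was 2, and 4 with log2 depth as a covariate.

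Of 1400 alternative values for single genes, 1223 kept their direction and side of the threshold and 127 turned sign, none of the latter at a gene that had passed. For KO against WT at E12.5, changes of opposite sign with TMM factors were 0.40 at Lhx1, 0.19 at Lhx5, 0.24 at Lhx9, 0.28 at Lhx3, 0.41 at Lhx4, 0.24 at Lhx8, 0.21 at Isl1 and 0.32 at Isl2. With column sums they were 0.14 at Lhx1, 0.019 at Lhx3, 0.14 at Lhx4 and 0.061 at Isl2. With DESeq2 they were 0.45 at Lhx1, 0.23 at Lhx5, 0.30 at Lhx9, 0.33 at Lhx3, 0.46 at Lhx4, 0.30 at Lhx8, 0.27 at Isl1 and 0.37 at Isl2. For KO against WT at E15.5, changes of opposite sign with column sums were 0.0041 at Lhx9 and 0.028 at Isl2. For KO against WT over both stages, changes of opposite sign with TMM factors were 0.12 at Lhx1, 0.0023 at Lhx5, 0.10 at Lhx9, 0.10 at Lhx3, 0.17 at Lhx4, 0.18 at Lhx8, 0.0019 at Isl1 and 0.15 at Isl2. With column sums they were 0.015 at Lhx1, 0.063 at Lhx4, 0.065 at Lhx8 and 0.044 at Isl2. With DESeq2 they were 0.14 at Lhx1, 0.022 at Lhx5, 0.12 at Lhx9, 0.12 at Lhx3, 0.19 at Lhx4, 0.20 at Lhx8, 0.025 at Isl1 and 0.17 at Isl2. For the difference between the stages in the genotype effect, changes of opposite sign with TMM factors were −0.35 at Lhx5, −0.27 at Lhx9, −0.35 at Lhx3, −0.46 at Lhx4, −0.12 at Lhx6, −0.13 at Lhx8, −0.41 at Isl1 and −0.33 at Isl2. With column sums they were −0.046 at Lhx5, −0.054 at Lhx3, −0.16 at Lhx4, −0.11 at Isl1 and −0.033 at Isl2. With DESeq2 they were −0.44 at Lhx5, −0.36 at Lhx9, −0.44 at Lhx3, −0.55 at Lhx4, −0.20 at Lhx6, −0.22 at Lhx8, −0.50 at Isl1 and −0.41 at Isl2. For E15.5 against E12.5 in WT, changes of opposite sign with TMM factors were 0.35 at Lhx2, 0.28 at Lhx3 and 0.30 at Lhx4. With column sums they were 0.14 at Lhx2, 0.066 at Lhx3 and 0.098 at Lhx4. With DESeq2 they were 0.45 at Lhx2, 0.37 at Lhx3 and 0.39 at Lhx4. For E15.5 against E12.5 in KO, changes of opposite sign with column sums were 0.012 at Lhx3. For covered bases, changes of opposite sign with log2 depth as a covariate were −0.0049 at Lhx9 and −0.021 at Lhx8. With intervals above the median score they were 0.042 at Lhx4.

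Leaving out 1 library at a time gave ranges on both sides of zero for KO against WT at E12.5, −0.23 to 0.0048 at Lhx1. Likewise for KO against WT at E15.5 the range was −0.11 to 0.016 at Lhx9, −0.15 to 0.00072 at Lhx4 and −0.11 to 0.074 at Isl2. For KO against WT over both stages the range was −0.13 to 0.014 at Lhx8. Likewise for the difference between the stages in the genotype effect the range was −0.15 to 0.086 at Lhx1, −0.056 to 0.17 at Lhx4 and −0.056 to 0.22 at Isl1. For E15.5 against E12.5 in KO the range was −0.12 to 0.066 at Lhx3 and −0.22 to 0.00057 at Lhx4. Likewise for covered bases the range was −0.012 to 0.036 at Lhx9, −0.095 to 0.065 at Lhx4, −0.10 to 0.056 at Lhx6 and −0.054 to 0.084 at Lhx8. For enrichment the range was −0.069 to 0.24 at Lhx1, −0.20 to 0.041 at Lhx5, −0.17 to 0.018 at Lhx4, −0.21 to 0.054 at Lhx8 and −0.077 to 0.12 at Isl2. With 3 libraries a group and depths from 0.0751 to 0.698 counts per window, a change that removes an interval from any library is outside these tests.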
